A study of Mus musculus with 6 samples.

Results

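The 10 genes described here act in cytokine signalling and were measured in group 2 innate lymphoid cells (ILC2s); they were chosen by symbol from the 18122 gene columns of the deposited table. They are the transcription factors Stat3, Stat5a, Stat5b and Stat6, the feedback inhibitors Cish, Socs1, Socs2 and Socs3, and the serine/threonine kinases Pim1 and Pim2. All 10 were present, and all 10 passed the filter on low counts. ILC2s are lymphocytes without antigen receptors that release type 2 cytokines, and here they were isolated from mouse lung by sorting and kept in culture before RNA was taken. The series holds 3 ICOS KO libraries, from a congenic strain whose name gives the allele Icostm1Shr, the donor 129S4 and the background C (the standard symbol of BALB/c), and 3 WT libraries, whose genotype is given as BALB/C BYJ. Icos encodes ICOS, a co-stimulatory receptor. The labels give no age, culture condition or source animal for any library, so p-values measure the spread between libraries, which may be technical. Strain name and Icos genotype differ together, and their parts in any difference cannot be told apart.

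Cytokine receptors of this family signal through JAK kinases, which phosphorylate STAT proteins. The phosphorylated STAT proteins pair, enter the nucleus and switch on target genes. CIS (from Cish) and the SOCS proteins are made in response to that signal and limit it, either at the receptor or at the JAK kinase. The PIM kinases, whose genes are also cytokine-induced, have no long regulatory domain and are active once made, so their transcript level is a main point of control. In cells that carry their receptors, interleukin-2, interleukin-7 and TSLP act largely through STAT5, and interleukin-4 and interleukin-13 through STAT6. Interleukin-6 and interleukin-10 family cytokines act largely through STAT3.

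Of the 10 genes, Socs3 and Pim2 rose and Stat6 fell in ICOS KO ILC2s, at an adjusted p under 0.05 in edgeR's quasi-likelihood test over 13691 genes, while the other 7 were not called. Of all genes tested, 3.29% were called, 1.29% as higher and 2.01% as lower in ICOS KO. Of the calls over all genes 39.0% were higher, a share that was 28.2% when only library totals were used for scaling and 57.3% when the trends of the libraries with length and GC of transcripts were taken out. Of the 10 genes, 2 were called with library totals and 4 with those trends taken out. The groups' libraries did not overlap for 5 of the 10 genes (Socs3, Pim1 and Pim2 above, Stat6 and Cish below), against 24.4% of all genes tested. At an unadjusted p under 0.05 there were 5 of the 10 genes (Stat5b and Pim1 beside the called ones), against 19.9% of all genes tested. The median log2 fold change of the 10 genes was 0.01, with 5 positive and 5 negative, against -0.00 over all genes tested. Levels are given as CPM, counts scaled to a common library size with TMM factors. By mean CPM the 10 genes lay between the 60.1st percentile (Stat5a) and the 99.0th percentile (Socs1) of genes tested.

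**Figure D1:**
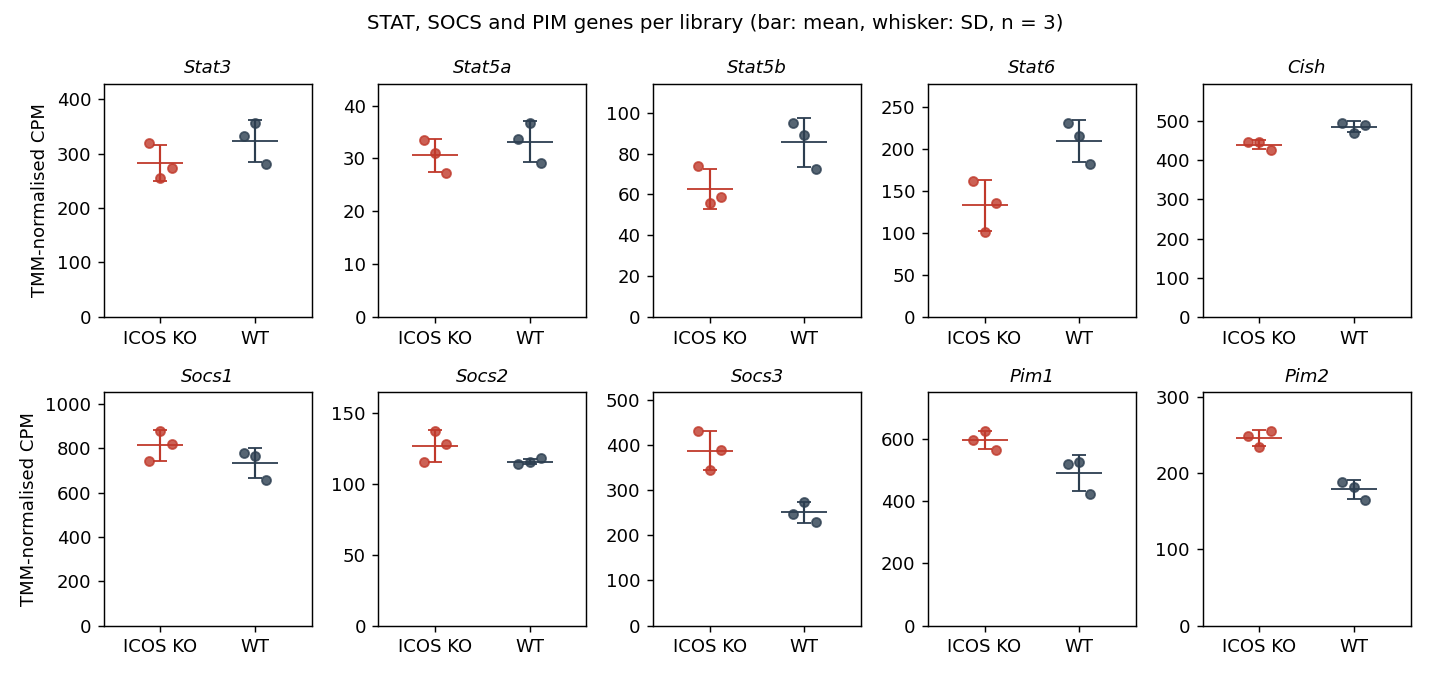
Level of each of the 10 genes in every library, in TMM-normalised CPM, with ICOS KO left and WT right of each panel (points are libraries, the bar is the mean and the whisker the SD, n = 3). The ICOS KO points of Socs3 and Pim2 lie above all WT points, and those of Stat6 lie below them.

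To show where STAT proteins could bind close to the start of the genes that did and did not change, the annotated promoters were searched for the palindrome TTCNNNGAA, the core sequence that STAT3 and STAT5 recognise, and for the same ends TTC and GAA with 4 bases of any kind between them, the longer spacing that STAT6 prefers. Both motifs read the same on either strand, so a single search covers both, and the longer one was found in none of these genes' promoters. The RefSeq promoter table (GRCm38.p6; 250 bases before to 50 bases after a start) held 12 promoters of these genes and none of Socs2. TTCNNNGAA was found in 8.3% of all 32851 promoters and 2 or more copies in 0.457%, and the longer motif in 6.95%. The promoters of Socs3 and Pim2, which rose, and of Cish, which was not called, follow 5′ to 3′ with the motif in capitals.
Socs3: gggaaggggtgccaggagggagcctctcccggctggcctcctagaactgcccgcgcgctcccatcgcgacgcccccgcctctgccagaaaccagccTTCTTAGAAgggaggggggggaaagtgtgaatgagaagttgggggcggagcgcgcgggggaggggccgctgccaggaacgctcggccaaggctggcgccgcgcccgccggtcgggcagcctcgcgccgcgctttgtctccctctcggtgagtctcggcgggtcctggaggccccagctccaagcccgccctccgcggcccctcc
Pim2: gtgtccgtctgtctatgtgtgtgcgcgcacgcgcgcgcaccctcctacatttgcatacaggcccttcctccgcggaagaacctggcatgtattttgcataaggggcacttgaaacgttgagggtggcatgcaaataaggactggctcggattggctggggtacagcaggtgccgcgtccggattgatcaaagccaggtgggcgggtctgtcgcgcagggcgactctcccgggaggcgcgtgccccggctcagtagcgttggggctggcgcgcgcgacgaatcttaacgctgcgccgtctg
Cish: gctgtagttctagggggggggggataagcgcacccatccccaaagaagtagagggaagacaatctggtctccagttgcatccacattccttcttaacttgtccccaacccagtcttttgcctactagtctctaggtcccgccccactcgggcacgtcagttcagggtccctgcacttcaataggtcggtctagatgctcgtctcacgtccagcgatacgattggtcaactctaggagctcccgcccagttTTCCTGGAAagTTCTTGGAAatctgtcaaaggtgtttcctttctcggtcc
The Socs3 window (chr11:117969317-117969616, minus strand) held 1 copy, TTCTTAGAA, at position -154 from the RefSeq start. This window lies inside the GENCODE M21 span of Socs3 (117966079 to 117970047), downstream of that span's start. The Cish window (chr9:107296409-107296708, plus strand) held 2 copies, TTCCTGGAA at position 0 and TTCTTGGAA at position 11. That window too lies inside the GENCODE M21 span of its gene (107296026 to 107302784), downstream of the span's start. The Pim2 window (chrX:7878056-7878355, plus strand) held neither motif, and nor did those of Stat3, Stat5a, Stat5b, Stat6, Socs1 and Pim1. A match describes these letters in this window and says nothing of binding.

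Library totals ranged from 13738062 to 15543034 estimated counts in ICOS KO and from 14976130 to 18736474 in WT. A floor of 3 counts was 0.193 to 0.218 CPM in ICOS KO libraries and 0.16 to 0.2 CPM in WT libraries, and covers counting error only, since no source names molecular identifiers. Icos fell, at 140, 170 and 161 CPM in ICOS KO against 434, 462 and 502 CPM in WT (edgeR adjusted p = 1.27e-05). All 12 ILC2 markers were detected, with a summed level of 10102 to 10967 CPM in ICOS KO and 9746 to 10841 CPM in WT. Most of that sum was Il5, chosen after its values were seen (6049 and 6460 CPM on average in ICOS KO and WT). By edgeR 3 of the 12 rose and 1 fell, against 1.29% and 2.01% of all genes tested. Mast cell and basophil markers were lower, with 7 of 8 tested falling, none at 0 in all libraries of a group, and a summed level of 57.7 to 70.4 CPM in ICOS KO against 348 to 403 CPM in WT. The summed B cell markers stood at 2644 to 2892 CPM in ICOS KO and 1519 to 2401 CPM in WT (Cd79b and Igkc rose, but neither was called without ICOS KO replicate 3, WT replicate 1 or WT replicate 2, or with the mitochondrial share described below as a covariate). The summed T cell markers stood at 55.4 to 76.1 CPM in ICOS KO and 49.9 to 69.5 CPM in WT, with Cd8a and Cd8b1 at 0 in all ICOS KO libraries. Of that list Cd3e fell (2.30 CPM in ICOS KO and 8.87 CPM in WT on average, edgeR adjusted p = 0.0281), and most of the sum was Cd3g, chosen after its values were seen (63.3 and 48.2 CPM on average in ICOS KO and WT). The macrophage and dendritic cell markers stood at 72.1 to 108 CPM in ICOS KO and 112 to 166 CPM in WT, and Csf1r among them fell (3.86 CPM in ICOS KO against 11.3 CPM in WT on average, edgeR adjusted p = 0.0130). The calls of Cd3e and Csf1r ended without ICOS KO replicate 3 or WT replicate 1, that of Cd3e also without WT replicate 2 or 3, and both with the mitochondrial share as a covariate. Neutrophil and eosinophil markers summed to 4.13 to 6.85 CPM in ICOS KO and 7.34 to 84.8 CPM in WT (Elane and Epx at 0 in all ICOS KO libraries). Structural lung cell markers summed to 143 to 255 CPM in ICOS KO and 140 to 228 CPM in WT. Of the 4 tested, 2 had positive and 2 negative log2 fold changes. Only Epcam was called, as higher (76.1 CPM in ICOS KO and 46.4 CPM in WT on average, edgeR adjusted p = 0.00381). The 2 negative ones, named after their values were seen, were Sftpc and Scgb1a1. Sftpc averaged 8.11 CPM in ICOS KO and 33.0 CPM in WT (edgeR adjusted p = 0.141), and Scgb1a1 38.5 and 57.8 CPM (0.761). Fewer cells of a type and less RNA per cell cannot be told apart in these bulk libraries. The part of these lists in the results below was not tested. Mitochondrial transcripts took 0.329%, 0.616% and 0.492% of counts in ICOS KO replicates 1, 2 and 3, against 0.263%, 0.294% and 0.422% in the WT replicates. The nuclear RNA Malat1 moved with that share, at 811, 1687 and 1413 CPM in ICOS KO against 610, 664 and 996 CPM in WT.

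Of the 4 STAT genes described here, Stat6 was called and Stat3, Stat5a and Stat5b were not. Stat6, the transcription factor of interleukin-4 and interleukin-13 signalling (chromosome 10, 127642986 to 127660957, GRCm38, GENCODE M21), stood at 162, 101 and 136 CPM in ICOS KO and at 232, 216 and 183 CPM in WT. Every ICOS KO library was below every WT library, and ICOS KO replicate 2 was the lowest. Mean levels were 133 ± 30.6 CPM in ICOS KO and 210 ± 25.0 CPM in WT (SD, n = 3 each). The log2 fold change was -0.66 ± 0.16 (SE; 95% interval -1.0 to -0.32; edgeR adjusted p = 0.0454). The call ended without ICOS KO replicate 2 (adjusted p = 0.0848), ICOS KO replicate 3 (0.167), WT replicate 1 (0.197) or WT replicate 2 (0.179), and with no filter on low counts (0.0521). Exons of Stat6 overlap those of Nab2 on the opposite strand, and the strand setting of the counts is not given in the sources used here, so their reads cannot be told apart.

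Stat5b, which carries signals of interleukin-2, interleukin-7 and growth hormone, stood at 74.0, 55.9 and 58.6 CPM in ICOS KO and at 95.2, 88.9 and 72.3 CPM in WT. ICOS KO replicate 1 was just above WT replicate 3, so the groups overlapped. The log2 fold change was -0.44 ± 0.14 (95% interval -0.75 to -0.13; edgeR adjusted p = 0.120), and the gene was called lower with sample quality weights (limma voom, adjusted p = 0.0390) and without ICOS KO replicate 1 (edgeR adjusted p = 0.0321). Its close relative Stat5a, which is needed for prolactin signalling, stood at 33.5, 31.0 and 27.2 CPM in ICOS KO and at 33.6, 36.8 and 29.1 CPM in WT. These groups overlapped, with a log2 fold change of -0.12 (95% interval -0.43 to 0.19; edgeR adjusted p = 0.675).

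Stat3, the transcription factor of interleukin-6, interleukin-10 and interleukin-21 signalling, stood at 320, 255 and 273 CPM in ICOS KO and at 332, 357 and 281 CPM in WT. The groups overlapped, with a log2 fold change of -0.19 (95% interval -0.45 to 0.06; edgeR adjusted p = 0.370). Stat5b, Stat5a and Stat3 are neighbours on chromosome 11, from 100780731 to 100939540 in that order. Stat5a and Stat5b lie 8626 bases apart, and the ends of Stat5a and Stat3, which run towards each other, overlap by 72 bases. Of the 50-base words in annotated transcripts of Stat5a, 8.21% were also found in Stat5b, and 11% of those of Stat5b in Stat5a, so the split of estimated counts between these 2 genes is uncertain over that part. Stat6 shared no such word with another gene, nor did Socs1, Socs3 and Pim1.

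The mitochondrial share was higher on average in ICOS KO, with overlap between the groups, and the levels of Stat5b and Stat6 moved with it. In the order of rising share (WT replicates 1 and 2, ICOS KO replicate 1, WT replicate 3, ICOS KO replicates 3 and 2), Stat5b was lower at each step, an order that 1.1% of genes tested shared. Stat6 followed it but for ICOS KO replicate 1, which had 162 CPM at a share of 0.329%, against 183 CPM in WT replicate 3 at 0.422%. With that share as a covariate, chosen after the data were seen, the log2 fold change of Stat6 was -0.34 ± 0.10 (edgeR adjusted p = 0.170), that of Stat5b -0.17 ± 0.11 (0.721), and that of Stat3 0.01 ± 0.09 (0.991).

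**Figure D2:**
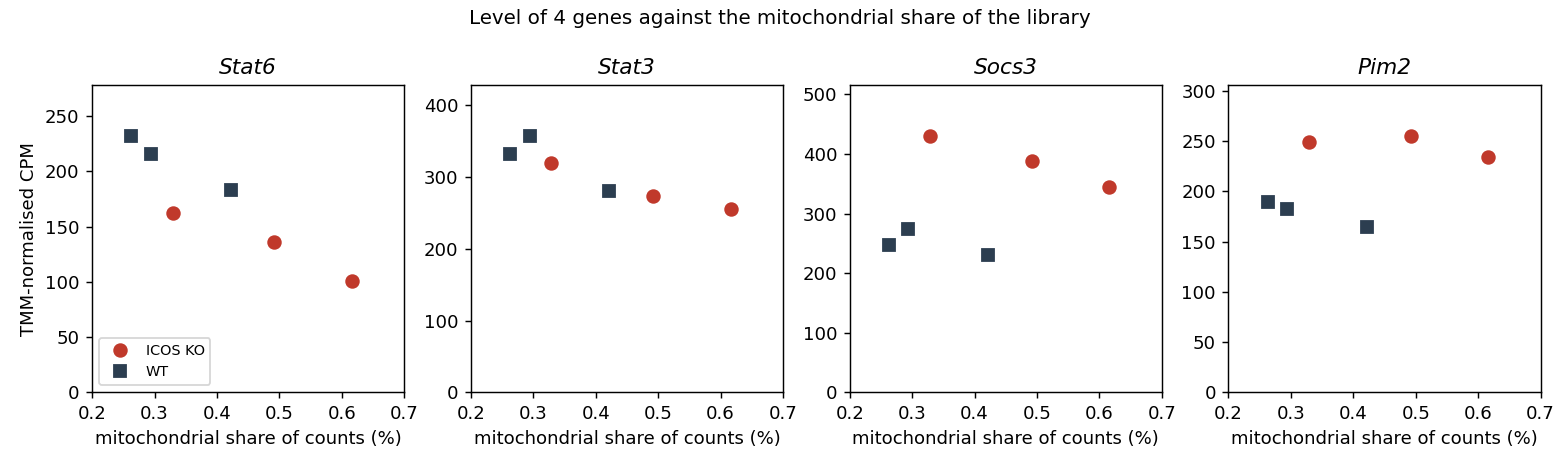
Level of Stat6, Stat3, Socs3 and Pim2 in TMM-normalised CPM (vertical axes, from 0) against the mitochondrial share of counts in percent (horizontal axes), 1 point per library. Stat6 and Stat3 run downward with the share across both groups. The ICOS KO points of Socs3 and Pim2 lie above all WT points. Within ICOS KO, Socs3 also runs downward with the share (430 CPM at 0.329%, 388 at 0.492% and 344 at 0.616%). In WT, Socs3 and Pim2 are lowest in replicate 3, which has the highest share of that group.

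Of the feedback inhibitors, Socs3 was called, and Cish, Socs1 and Socs2 were not. Socs3, whose protein blocks JAK kinases bound to the gp130 receptor chain and so limits STAT3 (chromosome 11, 117966079 to 117970047), stood at 430, 344 and 388 CPM in ICOS KO and at 247, 274 and 230 CPM in WT. The lowest ICOS KO library was above the highest WT library. Mean levels were 387 ± 42.9 CPM in ICOS KO and 251 ± 22.2 CPM in WT (SD, n = 3 each). The log2 fold change was 0.63 ± 0.11 (95% interval 0.39 to 0.86; edgeR adjusted p = 0.00840). It stood 158th by p among all genes tested. The rise was 0.79 ± 0.09 with the mitochondrial share as a covariate (edgeR adjusted p = 0.00105), and the call ended without ICOS KO replicate 3 (0.0527) or WT replicate 1 (0.0543). The promoter printed above holds a single TTCNNNGAA.

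Cish, the classical STAT5 target whose protein docks on cytokine receptors (chromosome 9, 107296026 to 107302784), stood at 446, 447 and 426 CPM in ICOS KO and at 496, 469 and 490 CPM in WT. The groups did not overlap, but the difference was small, a log2 fold change of -0.14 (95% interval -0.32 to 0.04; edgeR adjusted p = 0.350). The interval of this gene, whose promoter holds 2 motifs, runs from 0.801 to 1.03 of the WT level. Exons of Cish overlap those of the antisense gene Gm17041.

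Socs1, an inhibitor of JAK kinases that limits interferon-gamma and common gamma chain cytokines (chromosome 16, 10782240 to 10785536), stood at 740, 876 and 820 CPM in ICOS KO and at 776, 765 and 656 CPM in WT. The lowest ICOS KO library was below 2 of the WT libraries, and the log2 fold change was 0.15 (95% interval -0.06 to 0.36; edgeR adjusted p = 0.407). Socs2, best known as the inhibitor of growth hormone signalling through STAT5B (chromosome 10, 95385362 to 95417180), stood at 115, 137 and 128 CPM in ICOS KO and at 114, 115 and 118 CPM in WT. Its level was higher at each step of the mitochondrial share, as was that of 1.92% of genes tested, and its log2 fold change of 0.14 (95% interval -0.08 to 0.35; edgeR adjusted p = 0.469) was 0.03 with that share as a covariate. The interval of neither gene reached a difference of 1.3-fold in either direction.

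Of the kinases, Pim2 was called, and Pim1 was not. Pim2, a survival kinase that acts on cap-dependent translation and on the death agonist BAD (chromosome X, 7878262 to 7883432), stood at 249, 234 and 255 CPM in ICOS KO and at 189, 182 and 165 CPM in WT. All ICOS KO libraries were above all WT libraries, with means of 246 ± 10.9 CPM in ICOS KO and 179 ± 12.2 CPM in WT (SD, n = 3 each). The log2 fold change was 0.46 ± 0.09 (95% interval 0.26 to 0.67; edgeR adjusted p = 0.0208), and 0.55 ± 0.09 with the mitochondrial share as a covariate (0.00914). The call ended without ICOS KO replicate 3 (0.118) or WT replicate 1 (0.0715), 2 (0.120) or 3 (0.0663), and when only library totals were used for scaling (0.0518). Pim2 is X-linked, and Xist, the RNA of the inactive X chromosome, stood at 68.7 to 86.8 CPM in ICOS KO and 61.9 to 82.6 CPM in WT. The Y-linked genes Ddx3y, Eif2s3y, Kdm5d and Uty had no column in the deposited table.

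Pim1, the founding kinase of the family and a target of STAT3 and STAT5 (chromosome 17, 29490753 to 29496112), stood at 598, 625 and 566 CPM in ICOS KO and at 521, 526 and 424 CPM in WT. Here too the groups did not overlap, with WT replicate 3 the lowest. The log2 fold change of 0.28 ± 0.10 (95% interval 0.06 to 0.50) had an edgeR adjusted p of 0.161, and the gene was called higher when the length and GC trends were taken out (log2 fold change 0.39, adjusted p = 0.0258). Its exons overlap those of the antisense gene Gm26885. The ratio of Pim2 to Pim1 counts was 0.417, 0.374 and 0.451 in ICOS KO and 0.363, 0.346 and 0.390 in WT, and overlapped between the groups.

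**Figure D3:**
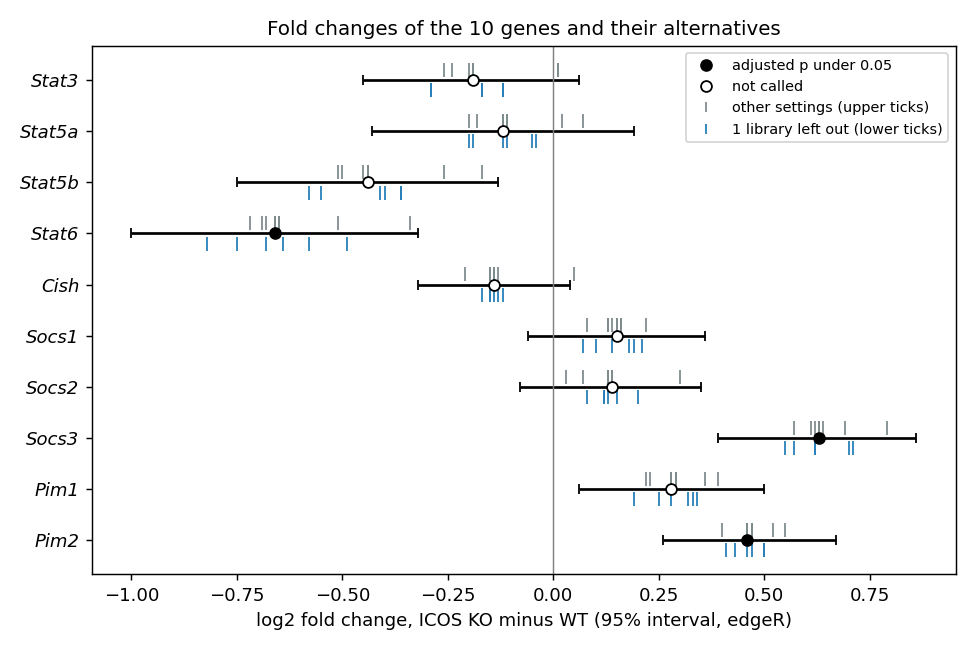
Log2 fold change of each gene, ICOS KO minus WT, with its 95% interval (horizontal axis; filled circles passed an adjusted p of 0.05), and ticks for the other settings above and for fits without 1 library below. Every tick of Stat5b and Stat6 lies below 0 and every tick of Socs1, Socs2, Socs3, Pim1 and Pim2 above 0, while ticks of Stat3, Stat5a and Cish fall on both sides.

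Ratios between these genes within a library do not depend on how libraries were scaled. Socs3 reads per Stat3 read were 1.34, 1.35 and 1.42 in ICOS KO and 0.743, 0.769 and 0.819 in WT. Their means were 1.37 ± 0.0418 in ICOS KO and 0.777 ± 0.0384 in WT (SD, n = 3 each), so the ratio was 1.76 times as high in ICOS KO. Its spread was narrow in both groups. This ratio joins the log2 fold change of Socs3 (0.63) with that of Stat3 (-0.19), which was not called. These values were 0.69 and 0.01 with the length and GC trends taken out, and 0.79 and 0.01 with the mitochondrial share as a covariate. A ratio within a library is not free of such trends. Socs3 relative to Cish was 0.965, 0.769 and 0.911 in ICOS KO and 0.498, 0.584 and 0.470 in WT. That ratio could not overlap, since every ICOS KO library was above every WT library for Socs3 and below for Cish. How often ratios of other gene pairs overlap was not tested. Stat6 relative to Stat3 was 0.507, 0.398 and 0.497 in ICOS KO and 0.697, 0.605 and 0.649 in WT, without overlap between the groups. The groups did not overlap for Stat6 or for Socs3 alone either, so the ratios of these genes to Stat3 are not separate results. Stat5a relative to Stat5b was 0.452, 0.554 and 0.465 in ICOS KO and 0.353, 0.414 and 0.403 in WT. Cish relative to Stat5a overlapped, with means of 14.5 ± 1.15 in ICOS KO and 14.8 ± 2.05 in WT.

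Levels can be compared between genes only per length, and were taken as CPM per kilobase of annotated exon. Socs1 was the highest of the 10 genes in all 6 libraries, at 255 to 301 CPM per kilobase in ICOS KO and 226 to 267 in WT, followed by Pim1 at 168 to 186 in ICOS KO and 126 to 156 in WT. Socs3 held rank 3 in all 6 libraries, at 119 to 149 CPM per kilobase in ICOS KO and 79.7 to 94.9 in WT. Pim2 held rank 4 and Cish rank 5 in ICOS KO means, at 88.1 ± 3.90 and 68.5 ± 1.88 CPM per kilobase, whereas in WT means Cish held rank 4 at 75.6 ± 2.17 and Pim2 rank 5 at 63.9 ± 4.36 (SD, n = 3 each). The STAT genes were lower. Stat6 stood at 30.2 ± 6.95 CPM per kilobase in ICOS KO and 47.7 ± 5.68 in WT, and Stat3 at 29.7 ± 3.55 in ICOS KO and 34.0 ± 4.03 in WT. In ICOS KO these 2 factors differed by less than their spread, and in WT all libraries of Stat6 were above all libraries of Stat3 on this length, but not on the longest transcript, where Stat6 stood at 61.4, 57.2 and 48.4 and Stat3 at 55.0, 59.0 and 46.6 CPM per kilobase. Stat5b stood at 11.3 ± 1.76 CPM per kilobase in ICOS KO and 15.4 ± 2.13 in WT, and Socs2 at 13.3 ± 1.12 in ICOS KO and 12.1 ± 0.210 in WT. Their libraries overlapped in ICOS KO, and in WT all libraries of Stat5b were above those of Socs2. Stat5a was the lowest in all 6 libraries, at 4.28 ± 0.438 in ICOS KO and 4.65 ± 0.542 in WT. With the longest transcript as the length, Socs1 and Pim1 again led and Stat5b and Stat5a came last in all 6 libraries, while in WT means Cish held rank 3 and Socs3 rank 4.

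**Figure D4:**
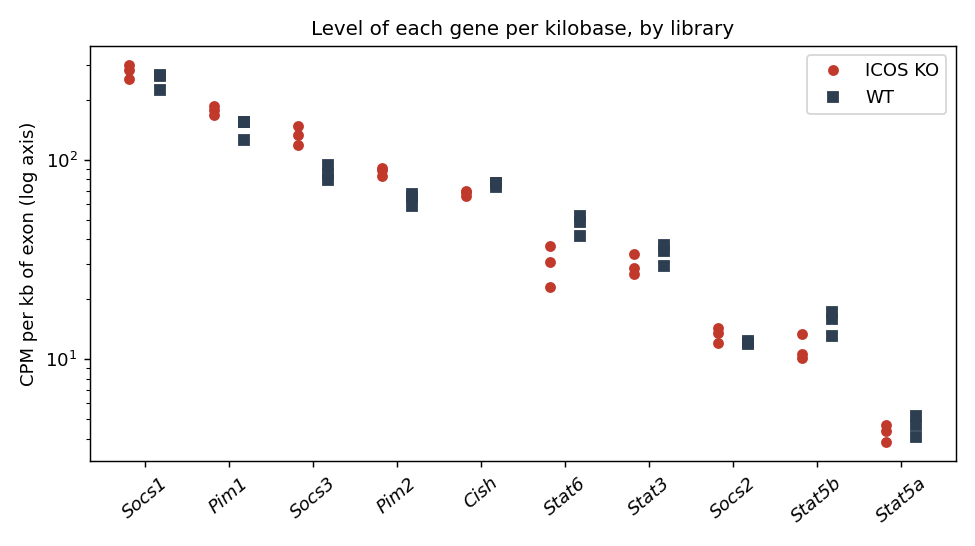
Level of each gene per kilobase of annotated exon in every library (vertical log axis, CPM per kb; circles ICOS KO, squares WT), ordered by the ICOS KO mean. Socs1 and Pim1 lie at the top and Stat5a at the bottom in both groups.

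The rest of the pathway was read from lists of other genes. Over all 13691 genes tested, edgeR called 451 (3.29%), DESeq2 929 and weighted voom 906, and 19.9% had an unadjusted edgeR p under 0.05. Of the 4 JAK kinase genes, edgeR called 0, DESeq2 0 and weighted voom 0, and 2 had an unadjusted edgeR p under 0.05. All 4 had negative log2 fold changes, with a median of -0.31, as had 6904 of the 13691 genes tested. Jak1, the kinase shared by most of these receptors, stood at 366, 325 and 287 CPM in ICOS KO and at 415, 395 and 367 CPM in WT (edgeR adjusted p = 0.190), and Jak2, which serves the GM-CSF receptor, at 51.2, 49.9 and 45.4 CPM in ICOS KO against 76.6, 65.6 and 49.0 CPM in WT (0.202). The log2 fold change of Jak1 was -0.27, against -0.14 with the mitochondrial share as a covariate and -0.10 with the length and GC trends taken out. That of Jak2 was -0.39, against -0.16 and -0.26 under these settings. Stat2, a factor of type I interferon signalling, stood at 31.3, 37.6 and 27.2 CPM in ICOS KO against 49.6, 53.5 and 39.4 CPM in WT (edgeR adjusted p = 0.0829). It was called lower by DESeq2 and weighted voom, but in no fit that left out 1 library. Its log2 fold change of -0.57 was -0.53 with the mitochondrial share as a covariate (edgeR adjusted p = 0.379). With the length and GC trends taken out it was -0.38 (0.193).

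Of 14 other SOCS, PIAS and phosphatase genes, edgeR called 1, which fell, DESeq2 2 and weighted voom 2 (median log2 fold change -0.10). The edgeR call was Sh2b3, which encodes the adaptor LNK, a brake on JAK2 signalling, at 16.9, 12 and 9.06 CPM in ICOS KO and 31.5, 24.4 and 26.7 CPM in WT (-1.12 ± 0.22, edgeR adjusted p = 0.0153; 0.0665 without ICOS KO replicate 3, 0.0860 without WT replicate 1 and 0.123 with the mitochondrial share as a covariate). Pias2, a SUMO ligase of the PIAS family, stood at 20.8, 16.2 and 17.0 CPM in ICOS KO against 30.9, 27.8 and 24.3 CPM in WT (edgeR adjusted p = 0.0630). It was called lower by DESeq2 (adjusted p = 0.0166) and weighted voom (0.0292), and its log2 fold change of -0.62 was -0.39 with the mitochondrial share as a covariate (edgeR, 0.455). Of 11 genes of PIM partners and substrates, edgeR called 0, DESeq2 0 and weighted voom 0. There 2 of 11 had an unadjusted edgeR p under 0.05, close to the 19.9% of all genes tested. They were the death agonist Bad (adjusted 0.177) and the cell cycle inhibitor Cdkn1b (0.176). The family member Pim3, chosen after its values were seen, averaged 71.0 ± 7.17 CPM in ICOS KO and 65.8 ± 8.70 CPM in WT (SD, n = 3 each; edgeR adjusted p = 0.670).

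Of 11 tested receptor genes that use STAT5 or STAT6, edgeR called 1, which fell, DESeq2 1 and weighted voom 2. The edgeR call was Csf2rb, the signalling chain of the GM-CSF, interleukin-3 and interleukin-5 receptors, at 45.2, 39.5 and 46.9 CPM in ICOS KO and 93.6, 76.6 and 91.7 CPM in WT (log2 fold change -0.99 ± 0.12, edgeR adjusted p = 0.00107). The mast cell and basophil markers, whose cells carry this chain, were at 57.7 to 70.4 CPM in ICOS KO against 348 to 403 CPM in WT, and their part in this change was not tested. Il2ra, the alpha chain of the interleukin-2 receptor, stood at 1742, 1627 and 1692 CPM in ICOS KO and 1465, 1373 and 1419 CPM in WT (edgeR adjusted p = 0.0977). It was called higher by weighted voom (adjusted p = 0.0406), with the length and GC trends taken out (edgeR, 0.00656) and with the mitochondrial share as a covariate (edgeR, 0.0490). Il10ra, which encodes the ligand-binding chain for interleukin-10, fell as well (log2 fold change -0.56 ± 0.11, edgeR adjusted p = 0.0178). Of 11 tested ligand genes, Il4, Il10, Il24 and Osm rose and Csf2 fell in the edgeR test, and DESeq2 and weighted voom each called 6. The calls of Il10, Il24 and Csf2 held whichever library was left out. Those of Il10ra and Il4 ended without ICOS KO replicate 3, WT replicate 1 or WT replicate 2, that of Il4 also without ICOS KO replicate 2, and that of Osm without any 1 library but ICOS KO replicate 1 and when only library totals were used for scaling (edgeR adjusted p = 0.0662). With the mitochondrial share as a covariate the calls of Il10ra (-0.44, edgeR adjusted p = 0.0986), Il4 (0.56, 0.189) and Osm (0.42, 0.153) also ended.

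Target genes of the STAT factors moved both ways. By edgeR, of 12 tested STAT5 targets 2 rose (Osm and Gzmb) and 1 fell (Myc), with a median log2 fold change of 0.05. Of 10 STAT6 targets 2 rose (Arg1 and Il24) and 1 fell (Irf4), with a median of -0.30. Of these 10 values 7 were negative and 3 positive, and 6904 of the 13691 over all genes tested were negative. Among the negative ones were Retnla (-1.48), Ccl17 (-1.42), Ccl22 (-0.94) and Chil3 (-0.40), chosen after their values were seen and not called. The macrophage and dendritic cell markers were at 72.1 to 108 CPM in ICOS KO against 112 to 166 CPM in WT. Their part in this median was not tested. Of 10 tested STAT3 targets 3 rose (Bcl3, Maf and Il10) and none fell, with a median of 0.19, and 5 values were positive and 5 negative. DESeq2 and weighted voom each called 5 of these targets, against 929 and 906 of all 13691 genes tested. Osm, Il24 and Il10 were also counted among the ligand genes above, so these lists overlap. The calls of Irf4 and Maf ended without ICOS KO replicate 3, WT replicate 1 or WT replicate 2, and that of Gzmb without WT replicate 2 (edgeR adjusted p = 0.0564), while that of Arg1 held in all 6 such fits. With the mitochondrial share as a covariate the calls of Irf4 (edgeR adjusted p = 0.0569), Maf (0.115), Gzmb (0.0555) and Myc (0.200) ended. Bcl3, an atypical inhibitor of NF-kappa B, stood at 289, 269 and 283 CPM in ICOS KO and 218, 209 and 205 CPM in WT (log2 fold change 0.41 ± 0.09, edgeR adjusted p = 0.0259), in the same direction as Socs3 and Pim2. Myc, the growth regulator, stood at 70.7, 61.2 and 62.4 CPM in ICOS KO and 99.8, 85.8 and 87.2 CPM in WT (-0.49 ± 0.11, edgeR adjusted p = 0.0375). The call of Bcl3 ended without ICOS KO replicate 3 or any 1 WT replicate (edgeR adjusted p up to 0.162) and when only library totals were used for scaling (0.0660). That of Myc ended without ICOS KO replicate 2 or 3 or any 1 WT replicate (up to 0.210).

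**Figure D5:**
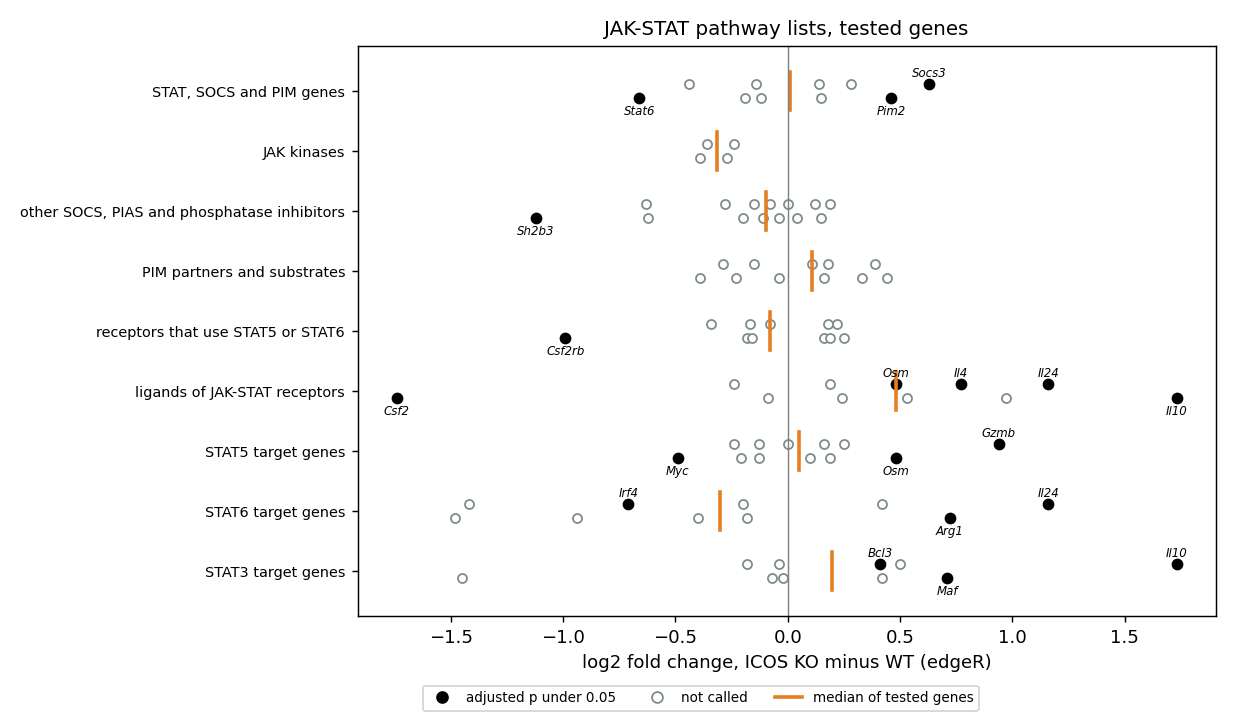
Log2 fold change, ICOS KO minus WT, of each tested gene in 9 lists (horizontal axis), with called genes filled and named and the list median as a vertical bar. Socs3 and Pim2 lie right of 0 and Stat6 left, and the 4 JAK kinase genes all lie left of 0.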

How the data were processed

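RNA came from 6 libraries of sorted and cultured mouse lung ILC2s, made from 10 pg of RNA each with an ultra-low input kit, per the labels. The authors deposited estimated counts per gene, of which 39.4% were not whole numbers and the lowest gene total was 10. Partek 10.0, STAR 2.7.8, DESeq2 and mm10 are named, per the submitters' processing notes; no source used here gives strand or annotation settings. Duplicates are mentioned in the series' design, whereas the labels give 3 libraries per group, and all were used.

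Counts were rounded and tested with edgeR 4.0.16 (R 4.3.3), using TMM factors, edgeR's expression filter (13691 of 18122 genes kept), the quasi-likelihood F test and Benjamini-Hochberg adjustment at 0.05. DESeq2 1.42.0 and limma 3.58.1 were alternatives, among 15 listed before the files were read and 1 added later. The procedure was tested on simulated data. Libraries correlated at r of 0.948 to 0.979 across genes, which are not independent replicates, and none was a duplicate of another. Members and lists were chosen with earlier results of these data known. Named beside the 10 genes were Icos and, in each pathway list, the called genes and the 2 with the smallest p, and called marker genes. Gene positions came from GENCODE M21 and promoters from RefSeq. Some genes of the pathway and marker lists, and the lists that turn on them, are not reported here.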

Additional observations from a re-analysis of the deposited data

How the results depend on the processing

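Of 160 values of the 10 genes over 16 alternatives, 138 kept their direction and their side of the threshold, 13 lost the call, 4 gained it and 5 changed sign. The sign changed for Stat3 (log2 fold change 0.01), Stat5a (0.07) and Cish (0.05) under removal of the length and GC trend, and for Stat3 (0.01) and Stat5a (0.02) with the mitochondrial share as a covariate, chosen after the data were seen; none of these was called. Stat6 lost its call at -0.66 with no filter on low counts and at -0.34 with that covariate, and Pim2 at 0.40 with library totals only. Stat5b gained a call at -0.50 with weighted voom, and Pim1 at 0.39 under removal of the length and GC trend. The cause was not tested.

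Leaving out 1 library at a time gave log2 fold changes of -0.82 to -0.49 for Stat6, 0.55 to 0.71 for Socs3, 0.41 to 0.50 for Pim2 and -0.58 to -0.36 for Stat5b. It called 0 to 4 of the 10 genes, 0 without ICOS KO replicate 3 or WT replicate 1, 1 without WT replicate 2, and 4 without ICOS KO replicate 1. Over all genes 451 were called, 929 by DESeq2, 906 by weighted voom, 240 with the mitochondrial covariate, and 193 to 1090 with 1 library left out (1090 without ICOS KO replicate 1, 216 without ICOS KO replicate 3, 193 without WT replicate 1 and 194 without WT replicate 2).

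With the replicate number as a block, 784 genes and 4 of the 10 genes were called, Stat5b among them (-0.44, edgeR adjusted p = 0.0403). Deviations of same-numbered libraries correlated at 0.09, 0.08 and 0.06, and each library correlated best with its own number, a hint from the data and not from the design, so the numbers were not taken to pair the libraries.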
